A study of Rattus norvegicus with 59 samples.

Results

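The chemokines Ccl2, Ccl5, Ccl20, Cxcl1 and Cx3cl1, the adhesion molecules Icam1 and Vcam1 and the cytokine Il1b were followed in the kidneys of 59 Fawn-Hooded Hypertensive (FHH) rats, an inbred strain with spontaneous hypertension and renal disease. These 8 genes were chosen by name among the 13337 genes that the platform annotation gives for the array, and each was read by 1 of its 22523 probes, so no gene had probes that could disagree. Each kidney was measured on 1 Illumina RatRef-12 array, and the 12 groups were set by age, sex and treatment. In the treated groups the mother's drinking water held 150 mg per L of pyrrolidine dithiocarbamate (PDTC), which the labels call an inhibitor of NF-kB, from 2 weeks before birth until 4 weeks after it. At 2 days there were 4 PDTC males, 4 PDTC females, 5 untreated males and 5 untreated females. At 2 weeks there were 4 PDTC males, 6 PDTC females, 6 untreated males and 5 untreated females. The adult groups held 5 rats each, PDTC males and untreated males aged 36 weeks and PDTC females and untreated females aged 42 weeks, so that sex and age in weeks cannot be told apart in adults. All groups were FHH rats, and normotensive rats were not analysed here. The adult rats had last been exposed as sucklings, through their mothers. The labels do not say which rats were littermates, so every p-value below measures the spread between these rats only.

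Chemokines are small secreted proteins that draw leukocytes along a gradient, each acting on receptors carried by particular cells. Endothelial cells that receive inflammatory signals such as interleukin 1 display adhesion molecules. The integrins of passing leukocytes bind to these before the leukocytes leave the vessel. Many of these genes are classical targets of the transcription factor NF-kB, which in resting cells is held in the cytoplasm by its inhibitor, the product of Nfkbia. In the kidney, Ccl2 (which attracts monocytes), Ccl5 (which attracts T cells and monocytes), Ccl20 (which attracts cells that bear Ccr6) and Cxcl1 (which attracts neutrophils) are made by tubular, endothelial and infiltrating cells. Cx3cl1 encodes fractalkine, a chemokine that is also a membrane-bound adhesion molecule.

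Promoter sequence is shown for the 3 members whose window holds the kappaB consensus, the motif to which NF-kB binds, because the treatment was directed at that factor. The RefSeq promoter table (rat build GRCr8) held 6 of the 8 members, all but Ccl2 and Ccl5. A match to the kappaB consensus was looked for by its name on both strands, over a length of 10 bases, in windows from 250 bases before to 50 bases after each start. It was found for Ccl20, Cxcl1 and Vcam1 and not for Cx3cl1, Icam1 and Il1b, and 7.51% of the 33469 promoters in the table (2515) held it. A match says only that these letters lie in the window. The 250 bases before the start follow, 5′ to 3′ on the strand of the gene, with the matched bases in capitals.
Ccl20, chr9:91836909-91837158, plus strand: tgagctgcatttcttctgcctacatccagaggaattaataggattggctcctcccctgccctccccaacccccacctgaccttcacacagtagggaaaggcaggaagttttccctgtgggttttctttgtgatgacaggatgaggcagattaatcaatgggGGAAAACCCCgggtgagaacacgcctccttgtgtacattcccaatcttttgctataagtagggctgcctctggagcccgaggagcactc
Cxcl1, chr14:17479322-17479571, minus strand: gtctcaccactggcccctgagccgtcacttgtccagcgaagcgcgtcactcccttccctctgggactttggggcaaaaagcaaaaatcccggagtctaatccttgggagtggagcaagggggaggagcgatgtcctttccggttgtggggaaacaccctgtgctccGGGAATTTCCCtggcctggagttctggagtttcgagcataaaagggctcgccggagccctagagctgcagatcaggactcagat
Vcam1, chr2:206742784-206743033, minus strand: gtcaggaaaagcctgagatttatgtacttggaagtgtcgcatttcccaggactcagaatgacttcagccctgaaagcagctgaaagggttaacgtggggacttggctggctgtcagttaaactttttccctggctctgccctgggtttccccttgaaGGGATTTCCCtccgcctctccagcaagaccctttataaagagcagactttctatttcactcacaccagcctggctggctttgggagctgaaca
Counted from the start, the match of Ccl20 spans positions -89 to -80. That of Cxcl1 spans -84 to -74, where 2 matches overlap. That of Vcam1 spans -93 to -84, where 2 matches share the same bases.

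Values below are log2 of background-corrected, quantile-normalized signals. A probe's signal is no measure of its level against another probe's, so only the same member is compared between rats. A probe counted as above background at a one-sided p under 0.05 against the array's own background, which held for 9139 to 12488 probes per array. Of the members, 6 were above background on all 59 arrays. Ccl5 was so on 18 of 18 arrays at 2 days, 20 of 21 at 2 weeks and 20 of 20 in adults, and Ccl2 on 13 of 18, 20 of 21 and 20 of 20, so that its values at 2 days lie near the lowest that could be read. All 8 members passed the filter on low signals in every comparison. As a check of the labelled tissue, the tubular markers Umod and Calb1 were above background on 18 of 18, 21 of 21 and 20 of 20 arrays. Because whole kidneys were measured, fewer cells of a type and less RNA per cell cannot be told apart in any value below.

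The first comparison set the suckling kidney against the newborn one without treatment, with 11 untreated rats at 2 weeks and 10 at 2 days. Cx3cl1, Ccl2, Cxcl1 and Il1b rose, and Ccl5, Ccl20, Icam1 and Vcam1 were not called. Cx3cl1 lay at 12.35, 11.79, 12.07, 12.13 and 11.94 in untreated females of 2 weeks, against 10.93, 11.06, 10.86, 10.97 and 11.07 in untreated females of 2 days. Untreated males of 2 weeks ranged from 11.7 to 12.34 with a median of 11.93, and untreated males of 2 days had 10.97, 10.91, 10.9, 10.71 and 11.07. No rat of 2 weeks overlapped a rat of 2 days. The log2 difference was 1.065 ± 0.08 (SE), a 2.09-fold higher level (limma, Benjamini-Hochberg adjusted p = 9.06e-10).

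The other 3 members rose less and their values overlapped between the ages. Ccl2, the monocyte attractant, ranged from 5.28 to 6.88 in untreated females and from 5.96 to 7.84 in untreated males of 2 weeks, against 5.23 to 5.86 and 5.17 to 5.84 in those of 2 days. Its difference was 0.84 ± 0.208 (adjusted p = 0.00274). Il1b, the cytokine that acts through the interleukin 1 receptor, differed by 0.282 ± 0.075 (adjusted p = 0.00475) and Cxcl1, the neutrophil attractant, by 0.357 ± 0.12 (adjusted p = 0.0222). Those not called differed by 0.378 ± 0.217 for Ccl20, 0.309 ± 0.19 for Ccl5, 0.105 ± 0.085 for Vcam1 and 0.037 ± 0.118 for Icam1. In this comparison 37.8% of 13378 probes were called, 16.9% as higher, and 9.19% did not overlap. The 4 of 8 members called stood beside that background, and their median difference was 0.33 where that of all tested probes was -0.011. With slide as a fixed term the same count of 4 was called, beside 47.8% of all probes. With arrays scaled to 1 median 3 were, beside 20.3% of all probes, Il1b lying at 0.3 with an adjusted p of 0.0501.

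The second comparison set 10 untreated adult rats against the 11 untreated rats of 2 weeks. Ccl2, Ccl5, Ccl20, Cxcl1, Il1b and Icam1 rose, by 2.54-fold for Icam1 and by 5.8-fold to 9.78-fold for the others. Ccl5 and Il1b did not overlap between the ages, while Cx3cl1 and Vcam1 were not called. Of 13114 probes 64% were called, 31.7% as higher, and 12.3% did not overlap, and the median difference of all tested probes was 0.003 against 2.78 for the 8 members. The plot of all kidneys by group shows the 3 ages side by side.

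**Figure D1:**
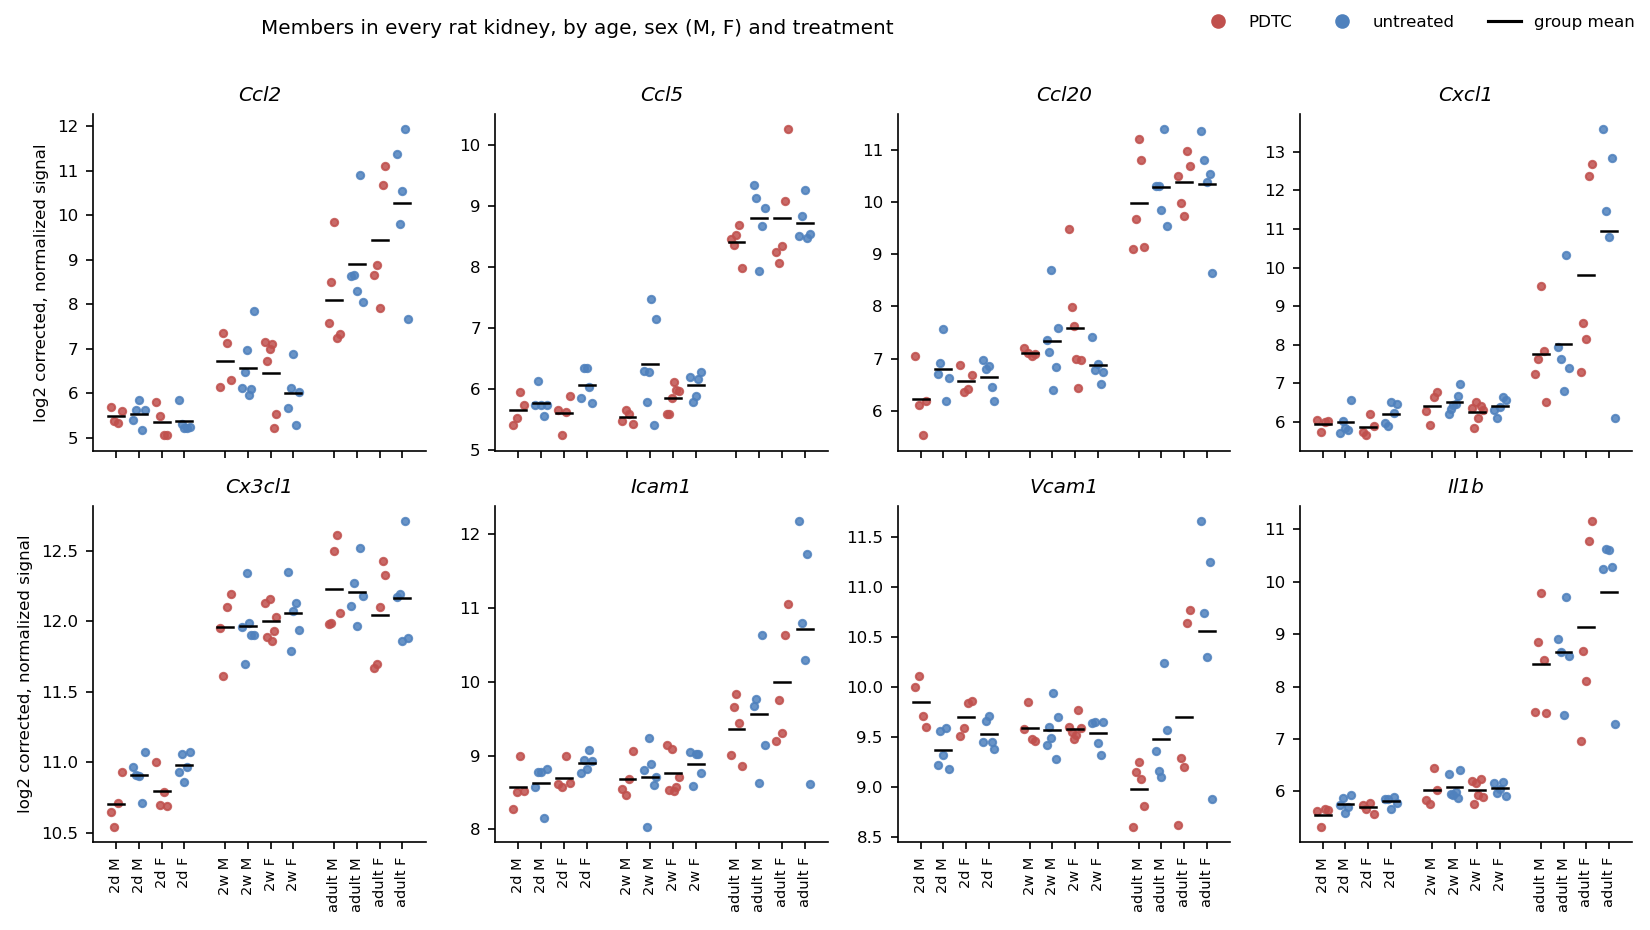
Log2 background-corrected, normalized signal (vertical axes, each panel on its own scale) of the 8 members in every kidney, with 1 point per rat, PDTC in red and untreated in blue, and black bars for group means. The adult groups lie highest for Ccl2, Ccl5, Ccl20, Cxcl1 and Il1b, Cx3cl1 steps up between 2 days and 2 weeks, and adult group means of Vcam1 run from 8.98 in PDTC males to 10.57 in untreated females.

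Ccl5 was at 8.51, 8.84, 9.26, 8.47 and 8.54 in untreated adult females, against 6.19, 5.79, 5.88, 6.16 and 6.28 in untreated females of 2 weeks. In untreated adult males it was at 9.34, 9.13, 7.93, 8.67 and 8.97, against a range of 5.41 to 7.48 with a median of 6.29 in untreated males of 2 weeks. After normalization the lowest adult thus lay above the highest pup, and the difference was 2.536 ± 0.218 (5.8-fold, adjusted p = 2.06e-09). Uncorrected scanner signals overlapped, at 137 in untreated adult female 1 and 356.9 in untreated male 4 of 2 weeks. Il1b was at 10.24, 10.62, 10.61, 10.28 and 7.28 in untreated adult females, against 6.16, 5.98, 6.05, 6.19 and 5.91 in untreated females of 2 weeks. In untreated adult males it was at 8.9, 8.65, 7.46, 9.7 and 8.59, against 5.88 to 6.4 with a median of 5.97 in untreated males of 2 weeks. All adults were again above all pups, although 1 adult female lay well below the other 4, and the difference was 3.161 ± 0.318 (8.94-fold, adjusted p = 2.46e-08).

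Ccl2 differed by 3.29 ± 0.426 (9.78-fold, adjusted p = 9.91e-07) and Ccl20 by 3.213 ± 0.299 (9.27-fold, adjusted p = 7.01e-09). Both overlapped between the ages through 1 adult, untreated female 5. It had 7.67 for Ccl2 and 8.64 for Ccl20, against highest values of 7.84 and 8.7 in untreated males of 2 weeks. For Ccl2 the overlap also rested on 1 pup, since 7.84 was that of untreated male 6, on slide 8 with adults. The next highest untreated rat of 2 weeks had 6.98. Cxcl1 differed by 3.029 ± 0.613 (8.16-fold, adjusted p = 2.04e-04) and overlapped more widely, with adults from 6.09 to 13.59 against pups of 2 weeks from 6.1 to 6.99. Icam1, the ligand of the beta2 integrins of leukocytes, differed by 1.346 ± 0.317 (adjusted p = 8.76e-04). Vcam1, the ligand of the integrin that holds Itga4, lay at 0.468 ± 0.236 (adjusted p = 0.0868), which 1 rat decided: without untreated adult female 5 it was 0.68 and called (adjusted p = 0.00122). Cx3cl1 lay at 0.177 ± 0.116 (adjusted p = 0.185).

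Age and array slide cannot be told apart in this comparison apart from 1 array, since pups lay on slides 1 to 6 and adults on slides 7 to 10, and untreated 2-week male 6 on slide 8. With slide as a fixed term, where that male alone ties the ages together, 1 member was called, Ccl20 at 3.54 (adjusted p = 0.0181), and the other 5 lay at 1.94 to 3.78. Of all probes 5.45% were called there. Without that male the 6 were called again, with Ccl2 at 3.42 and Il1b at 3.19. Untreated adult arrays also had fewer probes above background, with group medians of 10190 in males and 9933 in females, against 11787 and 11984 at 2 weeks. With arrays brought to 1 common median rather than quantile-normalized, the calls changed. That moved the median of all tested probes to -0.574 and called 12.1% of probes as higher and 57.8% as lower. On that scale 5 members were higher, Ccl2 at 2.52, Ccl20 at 2.43, Cxcl1 at 2.37, Il1b at 2.35 and Ccl5 at 1.71. Cx3cl1 was lower at -0.52 (adjusted p = 0.0106, 0.05 relative to all probes). Icam1 was then at 0.52 (adjusted p = 0.142, 1.09 relative to all probes) and Vcam1 turned to -0.38 (0.19 relative to all probes).

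Marker genes of leukocytes and other cells were read beside the members. Of 6 markers of all leukocytes 4 were called higher and 2 lower in adults than at 2 weeks, of 7 of T and NK cells 6 and 1, and of 9 of macrophages and dendritic cells 7 and 1. The granulocyte markers had 2 and 1 of 4, the endothelial markers 2 and 5 of 8, and those of tubular injury 2 and 4 of 8. Of all probes 31.7% were called higher and 32.3% lower. With slide as a fixed term the list counts were 1 and 0 for leukocytes, 2 and 0 for T and NK cells, 6 and 0 for macrophages and dendritic cells, 0 and 0 for granulocytes, 1 and 0 for endothelium and 1 and 1 for injury. The shares of all probes were then 2.27% and 3.18%. After scaling to 1 median the list counts were 3 and 2, 5 and 0, 6 and 1, 1 and 1, 1 and 5, and 2 and 6, beside 12.1% and 57.8% of all probes. The summed signal of the leukocyte list ran from 1955 to 2902 over all rats of 2 weeks and from 2034 to 6964 over all adults, and that of the macrophage list from 1781 to 3115 and from 7115 to 28284. The defining markers Cd5, Cd8a, Cd8b, Ms4a1, Cd163, S100a9, Elane, Ngp, Csf3r and Cdh5 were above background on 0 adult arrays. The brightest markers in adults were Arhgdib and Coro1a for leukocytes, Cd3g and Cd3e for T cells, Cd79b and Mzb1 for B and plasma cells, Cd74 and Aif1 for macrophages and dendritic cells, Lcn2 and S100a8 for granulocytes, Plvap and Emcn for endothelium and Spp1 and Cd24 for tubular injury. Of these Mzb1 was near background, above it on only 2 adult arrays with a mean log2 signal of 4.95. The part of these cells in the members' levels was not tested.

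Adult rats of 1 group differed widely in most members. The SD between rats of a group, pooled over the groups of an age, was 0.273 at 2 days, 0.277 at 2 weeks and 2.12 in adults for Cxcl1. In adults that SD was the second largest of 11701 tested probes. Ccl2 with 1.34 and Il1b with 1.3 ranked 35 and 38, Icam1 with 0.916 ranked 258, Ccl20 with 0.829 ranked 403 and Vcam1 with 0.766 ranked 604. Ccl5 with 0.569 was at rank 2116 and Cx3cl1 with 0.307 at rank 8077, below the median of all probes of 0.393. That median was itself lower in pups, at 0.195 at 2 days and 0.229 at 2 weeks. An SD over 1 was held by 154 probes, which is 1.32% of those tested.

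**Figure D2:**
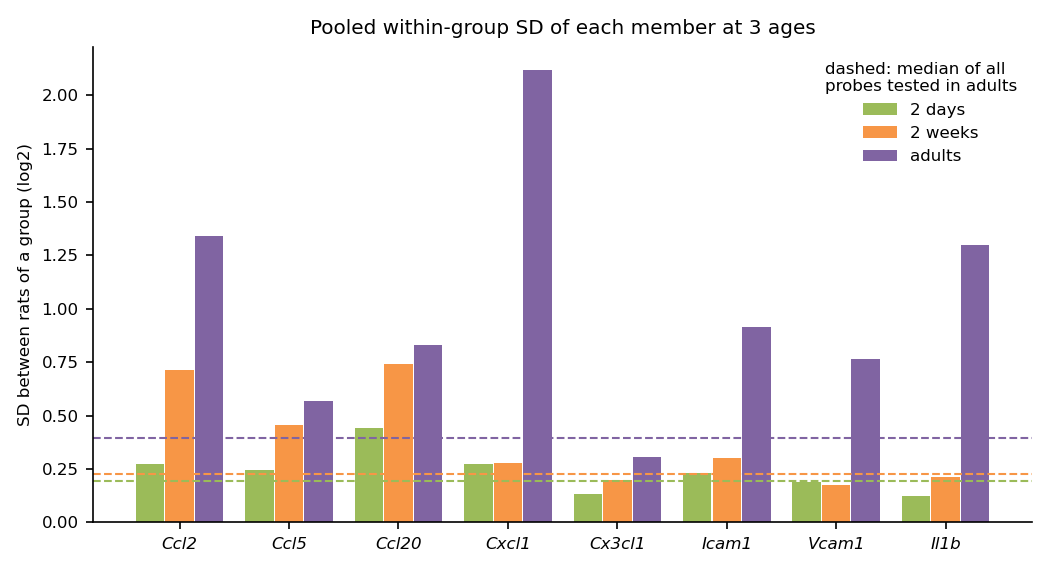
Pooled SD between rats of a group (vertical axis, log2 units) for each member at 2 days, 2 weeks and in adults, with dashed lines at the median over all probes tested in adults, drawn per age. Cxcl1, Ccl2, Il1b, Icam1 and Vcam1 have SDs of 0.766 to 2.12 in adults, against 0.173 to 0.715 at 2 weeks. Ccl20, Ccl5 and Cx3cl1 have 0.829, 0.569 and 0.307 in adults, against 0.742, 0.458 and 0.198. The median of all probes is 0.393 against 0.229.

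The values of single rats follow. Cxcl1 was at 7.3, 8.56, 8.15, 12.37 and 12.68 in PDTC females, against 13.59, 11.47, 10.79, 12.83 and 6.09 in untreated females. In PDTC males it was at 7.24, 7.63, 9.53, 7.83 and 6.51, against 7.93, 7.62, 6.8, 10.33 and 7.39 in untreated males. PDTC females 4 and 5, untreated females 1 to 4 and untreated male 4 thus stood above 10, and untreated female 5 was the lowest of all 20. The range within a group was 41.7-fold in PDTC females, 181-fold in untreated females, 8.11-fold in PDTC males and 11.6-fold in untreated males.

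Vcam1 was at 8.62, 9.29, 9.2, 10.64 and 10.77 in PDTC females, against 11.66, 10.74, 10.3, 11.25 and 8.88 in untreated females. In PDTC males it was at 8.6, 9.15, 9.25, 9.08 and 8.81, against 9.36, 9.16, 9.1, 10.24 and 9.57 in untreated males. The same 7 rats stood above 10. Icam1 was at 9.2, 9.76, 9.31, 10.64 and 11.06 in PDTC females, against 12.18, 10.8, 10.3, 11.73 and 8.61 in untreated females. In PDTC males it was at 9.01, 9.66, 9.84, 9.44 and 8.86, against 9.67, 9.77, 8.63, 10.63 and 9.15 in untreated males. Again these 7 rats were above 10 and the other 13 below it.

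Ccl2 was at 8.66, 8.89, 7.91, 10.68 and 11.11 in PDTC females, against 11.37, 9.81, 10.54, 11.93 and 7.67 in untreated females. In PDTC males it was at 7.57, 8.49, 9.84, 7.24 and 7.33, against 8.64, 8.66, 8.29, 10.9 and 8.05 in untreated males. The 7 rats were high here too, with PDTC male 3 level with the lowest of them. Il1b was at 6.96, 8.67, 8.1, 10.77 and 11.15 in PDTC females and at 7.51, 8.84, 9.78, 8.5 and 7.49 in PDTC males, beside the untreated values given above. Its 2 highest values were those of PDTC females 5 and 4, and its lowest that of PDTC female 1. Ccl20 ranged from 9.74 to 10.99 in PDTC females, 8.64 to 11.36 in untreated females, 9.1 to 11.21 in PDTC males and 9.55 to 11.4 in untreated males. Cx3cl1 lay between 11.67 and 12.71 in all 20 adults. Ccl5 was widest in PDTC females, at 8.25, 8.06, 8.35, 9.08 and 10.26, and in PDTC males it was at 8.46, 8.36, 8.52, 8.69 and 7.98.

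A test of spread, limma on each array's absolute deviation from its group's median, called 0 of 8 members in adults against 2 weeks without treatment (0.00763% of 13114 probes called). Cxcl1, Icam1 and Vcam1 had unadjusted p = 0.0159, 0.0103 and 0.0223 there, where 1608 probes (12.3%) had one under 0.05. It also called 0 of 8 for adults with PDTC against those without (percent called 0 of 11701 probes, 157 with an unadjusted p under 0.05, 0 of them members). With these group sizes the test could not be shown to detect a difference in spread, so the SDs stand as a description.

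The members varied together from 1 adult rat to the next. Over the 20 adult arrays, with each value taken as its deviation from its group mean, all 28 pairs of members had a positive Pearson r, from 0.28 to 0.97 with a median of 0.72. Of these, 22 passed a two-sided permutation test with 100000 pairings, adjusted over 44 relations, and 23 did so by Spearman's rho. How many of all pairs of probes would pass was not computed. Pairings were drawn over the adult groups together although their spread differed, with a Cxcl1 SD of 2.93 in untreated females and 1.12 in PDTC males. Cxcl1 and Vcam1 were closest, at r = 0.97 and rho = 0.96 (adjusted p = 4.4e-05, from p = 1e-05, the smallest that these permutations can give). Within the sexes their r was 0.99 in females and 0.85 in males, and by treatment 0.96 with PDTC and 0.98 without. Cxcl1 and Icam1 reached 0.95 (rho 0.92), Icam1 and Vcam1 0.93 (rho 0.9), Ccl2 and Cxcl1 0.92 (rho 0.83) and Cxcl1 and Il1b 0.91 (rho 0.91), each with the same adjusted p. Without the 2 arrays farthest from the median of the first member of a pair, r ran from 0.17 to 0.95 with a median of 0.64.

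**Figure D3:**
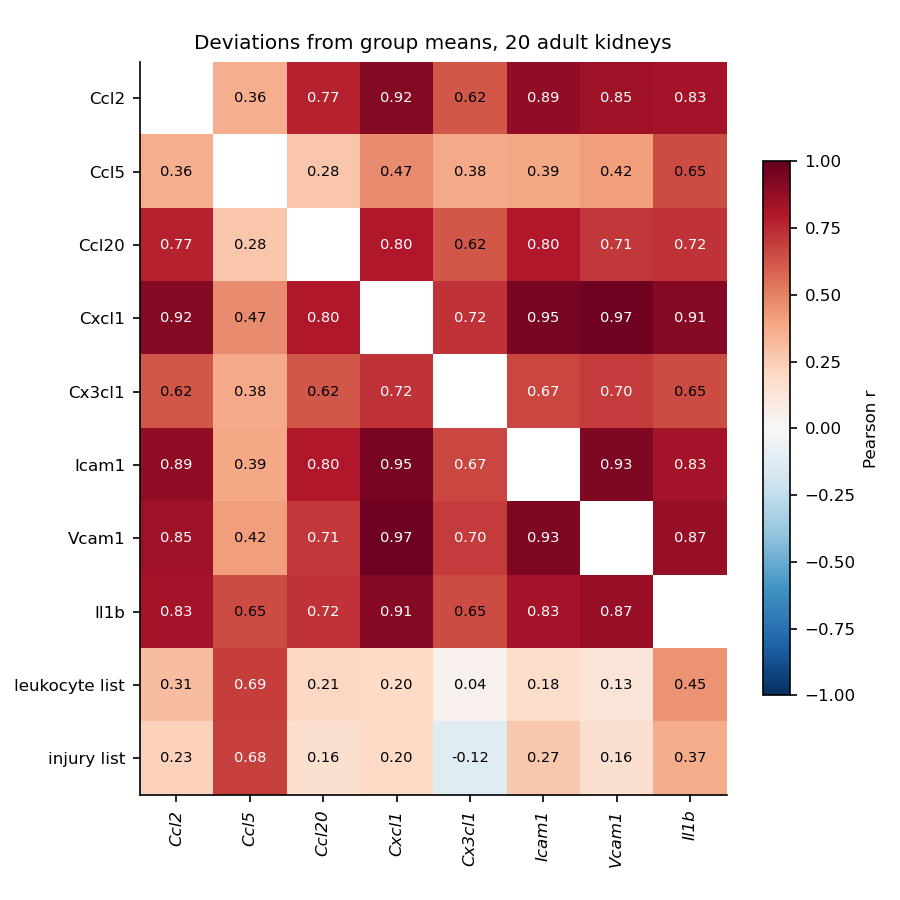
Pearson r of deviations from group means over 20 adult kidneys, for each pair of members and for each member against the mean log2 signal of the leukocyte and tubular injury marker lists (colour and printed number). Cxcl1, Vcam1, Icam1, Ccl2 and Il1b form a block of r from 0.83 to 0.97, and the row of Ccl5 is paler.

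Ccl5 had lower r with the others. By r it passed with Il1b (r = 0.65, rho = 0.6, adjusted p = 0.00386) and with no other member, at 0.28 to 0.47. By rho it also passed with Cxcl1 (rho = 0.51, adjusted p = 0.0441). With PDTC its r with Cxcl1, Icam1 and Vcam1 was 0.84, 0.84 and 0.82 over 10 rats, against 0.04, 0.08 and -0.05 over 10 rats without PDTC, and this difference was not tested. Over all 20 arrays Ccl5 was the only member to pass with the leukocyte list, at r = 0.69 (rho 0.6, adjusted p = 0.00196, and 0.5 without the 2 farthest arrays), and with the tubular injury list, at 0.68 (rho 0.61, adjusted p = 0.00191, and 0.44). For the other 7 members r was 0.04 to 0.45 with the leukocyte list and -0.12 to 0.37 with the injury list. Without the 2 farthest arrays of each, however, r with the leukocyte list was 0.7 for Il1b, 0.51 for Ccl2 and 0.48 for Icam1, and r with the injury list was 0.51 for Il1b, as high as that of Ccl5 or nearly so. By treatment, r of the other 7 members with the leukocyte list was 0.29 to 0.83 with PDTC and -0.59 to -0.09 without. Ccl5 had 0.69 and 0.71 there. Whether Ccl5 differs in this from the other members, or the treatments from each other, was not tested.

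**Figure D4:**
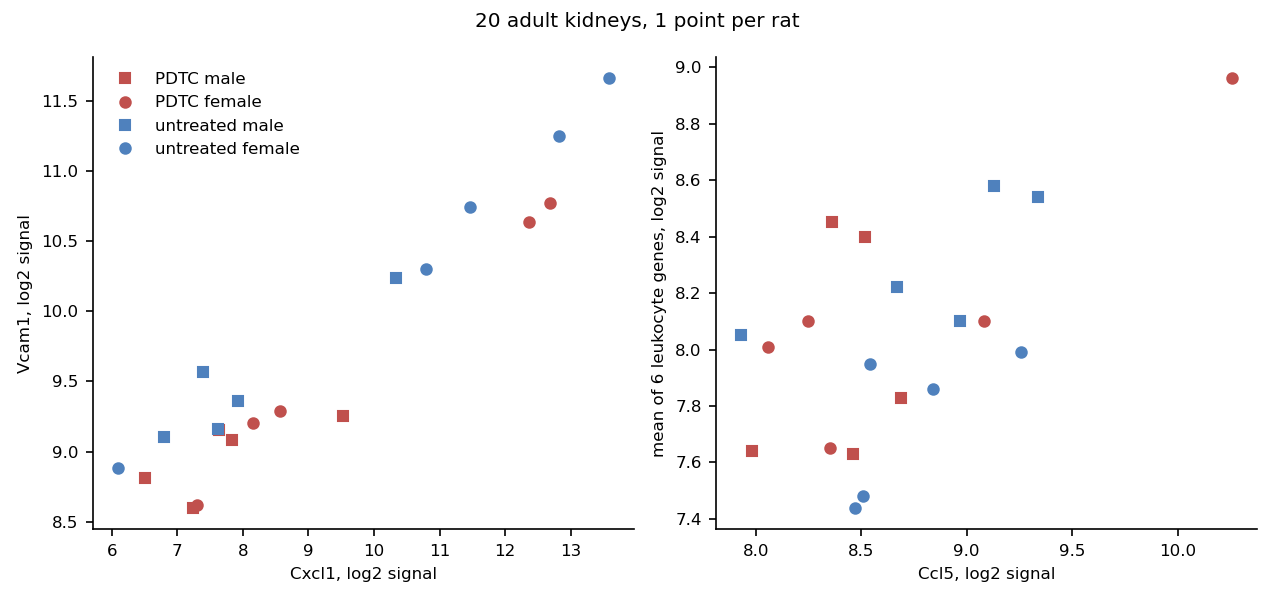
Adult kidneys, 1 point per rat, squares for males and circles for females, PDTC red and untreated blue. Left, Vcam1 against Cxcl1 (log2 signals), where 7 rats lie above 10 on both axes. Right, the mean log2 signal of 6 leukocyte genes against Ccl5, where PDTC female 5 has the highest value on both axes.

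Marker lists are given beside the members for the adult groups. The summed signal of the leukocyte list was 2791 to 6964 in PDTC females against 2034 to 3303 in untreated females, and 2197 to 4804 in PDTC males against 3193 to 5323 in untreated males. The granulocyte list summed to 1563 to 7525 in PDTC females against 1093 to 1875 in untreated females, and to 1260 to 3646 in PDTC males against 1123 to 4577 in untreated males. Its brightest gene was Lcn2, with a mean log2 signal of 10.74 in adults, which injured tubules also make, while S100a9, Elane, Ngp and Csf3r were above background on 0 adult arrays, so this sum is no measure of granulocytes. The endothelial list summed to 10883 to 13110 in PDTC females against 9114 to 12810 in untreated females, and to 9682 to 13962 in PDTC males against 9398 to 11736 in untreated males. The untreated females, with the highest group means of Cxcl1, Icam1 and Vcam1, had the smallest maximum of the leukocyte sum among the 4 adult groups. The same held for the macrophage list, at 7671 to 28284 in PDTC females against 7115 to 11971 in untreated females, and at 7524 to 16319 in PDTC males against 8517 to 19034 in untreated males. The tubular injury list summed to 41832 to 69980 in PDTC females against 32603 to 39553 in untreated females, and to 44587 to 72152 in PDTC males against 45081 to 75624 in untreated males. On that sum untreated females lay below every rat of the other 3 groups. Its brightest gene was Spp1, with a mean log2 signal of 14.53 in adults, and Havcr1 and Krt18 had no probe. By the mean log2 signal of the same genes, untreated females at 10.59 to 10.97 overlapped PDTC females at 10.89 to 11.82. How often other lists part the groups was not computed. The part of these cells and of injury in the members' spread and group differences was not tested.

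The number of probes above background moved with some members between adult rats. Over the 20 arrays, as deviations from group means, r was -0.57 for Icam1, -0.55 for Cx3cl1 and -0.53 for Ccl2 (adjusted permutation p = 0.0409 each over 8 relations), and -0.48 to -0.18 for the other 5. By Spearman's rho 0 of 8 passed (smallest adjusted p = 0.0515), against 5 at an unadjusted p under 0.05, and without the 2 farthest arrays r for those 3 was -0.43, -0.45 and -0.3. The part of array quality in the spread was not tested. Each slide held 5 adult arrays, too few for an r of its own. The number of pairs passing was 22 to 23 over the alternatives. These were no normexp, scaling to 1 median, the authors' log2 values, and slide means removed as well as group means. With 1 array left out that number was 22 to 24.

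Untreated adult females, the older by 6 weeks, were set against untreated adult males. Their means were higher for 6 of 8 members, with a median difference of 1.11, yet 0 were called, where 1.34% of 11701 probes were, 0.744% as higher and 0.598% as lower. Cxcl1 differed by 2.941 ± 1.2 (7.68-fold, adjusted p = 0.342), Icam1 by 1.156 ± 0.526 (2.23-fold, adjusted p = 0.433) and Vcam1 by 1.082 ± 0.443 (2.12-fold, adjusted p = 0.344), the 3 members with an unadjusted p under 0.05, as 1241 probes (10.6%) had. Ccl2 lay at 1.356 ± 0.761 and Il1b at 1.146 ± 0.741, and Ccl20, Ccl5 and Cx3cl1 within 0.083 of 0. For Cxcl1 4 of 5 females lay above all males, and untreated female 5 below them all. Without that female Cxcl1 differed by 4.16 and was called (adjusted p = 0.0495). In 1 fit of all arrays, which pools the spread of pups and adults, Cxcl1, Icam1 and Vcam1 were called, beside 8.7% of all probes.

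The study set PDTC rats against untreated rats of the same age and sex. At 2 days limma called 0 of 8 members, as it called 0 of 13163 probes (0%), and 4 members and 2085 probes (15.8%) had an unadjusted p under 0.05. Vcam1 was at 10, 10.11, 9.71 and 9.6 in PDTC males, against 9.22, 9.56, 9.32, 9.59 and 9.18 in untreated males. In PDTC females it was at 9.51, 9.59, 9.84 and 9.86, against 9.45, 9.66, 9.71, 9.45 and 9.38 in untreated females. All PDTC males lay above all untreated males, by a narrow margin, and the females overlapped. The difference was 0.326 ± 0.0894 with a 95% interval of 0.138 to 0.514 (adjusted p = 0.138), and 7 of 8 PDTC pups lay above the untreated mean of their sex. On the 5 slides with both treatments it was positive on each, from 0.13 to 0.47, and with slide as a fixed term it was 0.27 (adjusted p = 0.309). With array weights it was 0.35 and passed (adjusted p = 0.0412), where 2.83% of all probes did.

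The chemokines and Il1b lay the other way in newborns, without a call. Il1b was at 5.62, 5.32, 5.66 and 5.64 in PDTC males, against 5.75, 5.88, 5.59, 5.7 and 5.93 in untreated males. In PDTC females it was at 5.75, 5.67, 5.79 and 5.57, against 5.85, 5.85, 5.67, 5.9 and 5.78 in untreated females. All 8 PDTC pups lay below the untreated mean of their sex while the ranges overlapped, and the difference was -0.162 ± 0.0657 (adjusted p = 0.24). Ccl5 lay at -0.298 ± 0.112 (adjusted p = 0.212, 7 of 8 below) and Cx3cl1 at -0.194 ± 0.0685 (adjusted p = 0.193, 6 of 8 below). Ccl20 at -0.328 ± 0.193, Cxcl1 at -0.189 ± 0.123 and Ccl2 at -0.026 ± 0.123 had intervals that held 0. Icam1 was at -0.127 ± 0.106, and at 0.08 after scaling to 1 median, where all tested probes had a median of 0.124. Values of PDTC and untreated pups overlapped for all 8 members, where 0.0152% of probes did not overlap.

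At 2 weeks, while treatment of the dams went on, 0 of 8 members and 0% of 13360 probes were called, with 1 member and 697 probes at an unadjusted p under 0.05. That member was Ccl5. It was at 5.48, 5.66, 5.59 and 5.42 in PDTC males, against 5.41 to 7.48 with a median of 6.29 in untreated males. PDTC females ranged from 5.58 to 6.11 with a median of 5.9, against 6.19, 5.79, 5.88, 6.16 and 6.28 in untreated females. Both sexes overlapped, and the wide range of untreated males came from males 4 and 6, at 7.48 and 7.15. Before normalization male 4 had the highest scanner signal of the untreated males, 356.9. Male 6, on slide 8 with adults, had the lowest, 119.9, so its high value arose only in processing. Without male 4 the difference was -0.43 and without male 6 -0.47. Ccl20 at 0.242 ± 0.298 and Ccl2 at 0.299 ± 0.287 had the widest intervals, -0.376 to 0.861 and -0.299 to 0.896. The highest Ccl20 of all pups, 9.48, was that of PDTC female 1. The other 5 members lay between -0.131 and 0.033, and Cxcl1, Cx3cl1, Icam1 and Il1b had the other sign, at 0.02 to 0.12, after scaling to 1 median, where all tested probes had a median of 0.134.

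In adults, exposed only early in life, all 8 members had lower means with PDTC, by a median of -0.46 beside -0.006 for all tested probes, and 0 were called (0% of 11701 probes). Vcam1, at -0.683 ± 0.313 with an interval of -1.337 to -0.03, was the 1 member among 668 probes with an unadjusted p under 0.05 (adjusted p = 0.799). Of the 10 PDTC rats 8 lay below the untreated mean of their sex. Its difference was -0.862 ± 0.443 in females and -0.505 ± 0.443 in males, and it was lower on 3 of 4 slides. Ccl2 lay at -0.812 ± 0.538, Cxcl1 at -0.703 ± 0.85, Icam1 at -0.468 ± 0.372 and Il1b at -0.455 ± 0.524. Since these 5 members varied together between rats, their signs are not separate observations. Ccl5 at -0.166 ± 0.238 and Ccl20 at -0.132 ± 0.338 were nearer 0, and Cx3cl1 at -0.051 ± 0.141 turned to 0.04 with arrays scaled to 1 median. The interval of Cxcl1, -2.474 to 1.068, shows how far the adult spread limits this comparison, while that of Cx3cl1 was -0.346 to 0.243.

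**Figure D5:**
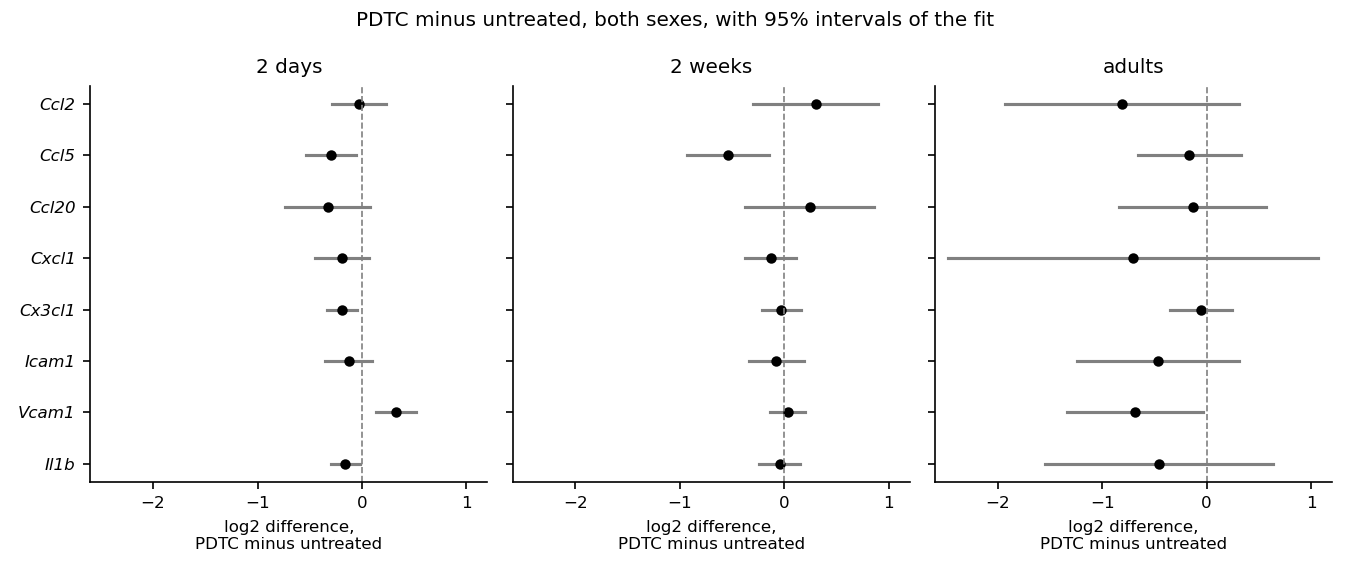
Log2 difference between PDTC and untreated rats (horizontal axis, positive where PDTC was higher) of each member at 3 ages, with both sexes in 1 fit, points for estimates and lines for 95% intervals. Vcam1 lies at 0.326 at 2 days, 0.033 at 2 weeks and -0.683 in adults, and the adult intervals are the widest.

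Within single sexes 0 members were called at any age, and 0 differed between the sexes in their PDTC difference, of 13163, 13360 and 11701 probes with 0% called at 2 days, 2 weeks and in adults. Members with an unadjusted p under 0.05 numbered 4 in males and 1 in females at 2 days, 1 and 0 at 2 weeks and 0 and 0 in adults. Over all probes the shares with such a p were 11.2% in males and 7.35% in females at 2 days, 3.23% and 3.16% at 2 weeks and 8.08% and 5.82% in adults. Between ages, 0 members were called in the PDTC difference at 2 weeks minus that at 2 days (0% of 14079 probes), or in that of adults minus that at 2 weeks (0% of 13951). These comparisons share the rats of 2 weeks.

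The other genes of these pathways were read from lists of names. Of all probes 31.7% were called higher and 32.3% lower in untreated adults than at 2 weeks, and 16.9% and 20.9% at 2 weeks than at 2 days. The counts of each list stand beside these shares. Of 20 tested chemokine ligands 15 were higher and 1 lower in untreated adults than at 2 weeks, with a median of 1.208, and 9 of 17 were higher and 0 lower at 2 weeks than at 2 days. Cxcl11 and Ccl19, which attract T cells, rose by 3.116 ± 0.13 and 2.837 ± 0.176 in adults, after 1.655 ± 0.109 and 1.565 ± 0.127 at 2 weeks. Ccl21, made by lymphatic endothelium, rose by 1.99 ± 0.23 in adults, and Cxcl13, which attracts B cells, by 1.55 ± 0.151 at 2 weeks. All 4 were past the test over all probes (largest adjusted p = 2.02e-07 in adults and 4.5e-08 at 2 weeks).

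Of 12 tested chemokine receptors 8 were higher and 1 lower in adults (median 0.663), and 2 and 2 of 11 at 2 weeks. Ccr1, a receptor of Ccl5, rose by 1.366 ± 0.137 in adults. Cxcr4, the receptor of Cxcl12, fell by 2.374 on the log2 scale in adults (above background on 6 of 10 adult arrays). At 2 weeks it fell by 0.521, while Ackr3, the other receptor of Cxcl12, rose by 1.003 ± 0.168 at 2 weeks and Ccrl2 by 0.656 ± 0.113. Ccr7, the receptor of Ccl19 and Ccl21, was at 0.922 ± 0.16 (adjusted p = 3.72e-05) in adults and at 0 with arrays scaled to 1 median.

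Of 15 integrins, selectins and other adhesion genes 6 were higher and 8 lower in adults (median -0.254), and 3 and 2 of 14 at 2 weeks. Itga4, which encodes the integrin chain that binds Vcam1, fell by 1.635 on the log2 scale in adults, where it was above background on 3 of 10 arrays. Of the endothelial adhesion genes, Mcam fell by 1.567 (above background on 2 of 10 adult arrays) and Jam3 fell by 1.061. At 2 weeks Esam, of endothelial junctions, rose by 0.433 ± 0.0702, Cd34 by 0.239 ± 0.0747 (above background on 4 of 11 arrays of 2 weeks and 1 of 10 of 2 days), and Alcam fell by 0.704. Of 10 genes of the interleukin 1 system 6 were higher and 1 lower in adults (median 0.84), and 3 and 1 at 2 weeks. Myd88, the adaptor of the receptors, rose by 1.52 ± 0.123 and Il18 by 1.796 ± 0.209 in adults, and Il33 fell by 0.715. Casp1, the protease that matures Il1b, rose by 1.494 ± 0.114 at 2 weeks, and Myd88 by 0.312 ± 0.0967. Il1r2, the decoy receptor, was called lower at 2 weeks, where it was above background on 0 of 11 arrays, so that no size is given.

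Of 9 NF-kB feedback and cytokine targets 7 were higher and 1 lower in adults (median 0.952), and 5 and 0 of 7 at 2 weeks. Nfkb2 rose by 1.57 ± 0.177 and Birc3 by 2.675 ± 0.333 in adults. Ptgs2, cyclooxygenase 2, rose by 1.482 ± 0.153 at 2 weeks and fell by 4.645 in adults, and Csf1 and Nfkbia rose by 0.55 ± 0.0947 and 0.335 ± 0.0805 at 2 weeks. Arrays scaled to 1 median gave 11 higher and 2 lower for the ligands in adults, 3 and 2 for the receptors, 5 and 8 for the adhesion genes, 4 and 1 for the interleukin 1 system and 5 and 2 for the NF-kB targets. With slide as a fixed term these counts were 4 and 0, 1 and 0, 0 and 1, 2 and 0, and 1 and 0. Of all probes 12.1% were called higher and 57.8% lower on the scaled arrays, and 2.27% and 3.18% with slide as a fixed term. These are descriptions of lists, and none was tested as a set.

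With PDTC 0 genes of these 5 lists were called at any age. The smallest p of the ligands were those of Ccl21 at 0.532 ± 0.124 at 2 days (adjusted p = 0.125), Ccl19 at -0.308 ± 0.105 at 2 weeks and Ccl4 at -1.216 ± 0.743 in adults. Among receptors they were those of Ccr7 at -0.17 ± 0.0823, Ccrl2 at -0.296 ± 0.0935 and Ccr10 at -0.564 ± 0.273, and among adhesion genes those of Alcam at 0.565 ± 0.155, Cd44 at 0.276 ± 0.141 and Jam3 at 0.455 ± 0.136. For the interleukin 1 system they were Irak3 at 0.136 ± 0.0973, Casp1 at -0.264 ± 0.0975 and Irak3 at 0.379 ± 0.163, and for NF-kB targets Birc3 at 0.209 ± 0.0877, Nfkb1 at 0.303 ± 0.17 and Csf1 at -0.541 ± 0.28. Second in each list, in the order 2 days, 2 weeks and adults, were Cxcl12 at 0.175 ± 0.0944, Cxcl11 at -0.323 ± 0.121 and Ccl17 at 0.317 ± 0.256 among ligands, and Ccr10 at -0.355 ± 0.18, Ccr10 at -0.216 ± 0.157 and Ccr6 at 0.394 ± 0.219 among receptors. Among adhesion genes they were Itgam at -0.233 ± 0.0724, Itga4 at 0.272 ± 0.155 and Mcam at 0.841 ± 0.261. In the interleukin 1 system they were Myd88 at -0.086 ± 0.107, Irak3 at 0.125 ± 0.0894 and Irak4 at -0.358 ± 0.203, and among NF-kB targets Nfkbia at -0.129 ± 0.063, Nfkbie at 0.188 ± 0.131 and Rela at -0.195 ± 0.138. With array weights Ccl21 and Alcam at 2 days passed (adjusted p = 0.038 each), beside 2.83% of all probes. In 1 fit of all arrays Jam3 and Mcam in adults did (adjusted p = 0.0308 and 0.0426), beside 0.436% of all probes. Several of these genes were near background in some rats: Ccl4 was above it in 3 of 10 PDTC and 5 of 10 untreated adults, Irak3 in 5 and 1, and Birc3 in 6 of 8 PDTC and 2 of 10 untreated pups of 2 days. Between untreated adult females and males 1 gene of the lists was called, Cd44, the hyaluronan receptor, which was lower in females at -1.809 ± 0.336 (adjusted p = 0.00579). It was above background on 1 of 5 female and 5 of 5 male arrays, and after scaling to 1 median it lay at -1.06 (adjusted p = 0.0859). Cxcl2, the close relative of Cxcl1, had a difference of 2.935 ± 1.15 (adjusted p = 0.314) and was above background on 4 of 5 female and 1 of 5 male arrays. The other genes of smallest p were Pf4 at -1.191 ± 0.429 and Cxcl16 at -0.554 ± 0.252 among ligands and Ccrl2 at 1.594 ± 0.655 and Ccr1 at -0.388 ± 0.202 among receptors, with Ccr6 above background in 0 of 5 females and 4 of 5 males. Among adhesion genes they were Sele at 1.275 ± 0.4 and Itgb7 at -1.007 ± 0.341, and in the interleukin 1 system Pycard at -1.304 ± 0.482, Casp1 at -0.635 ± 0.304 and Il18bp at -0.673 ± 0.507. Among NF-kB targets they were Csf1 at 0.969 ± 0.396 and Nfkbia at 0.727 ± 0.406, with Il6 above background in 2 of 5 females and 0 of 5 males. None of these passed (smallest adjusted p = 0.0665, for Ccr6), although in 1 fit of all arrays 9 of them did, Cxcl2 included, beside 8.7% of all probes.

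The genes most like each member between adult rats were found by Pearson r of deviations from group means among 7366 named probes over 20 arrays, given without a test. Gch1, of tetrahydrobiopterin synthesis, was the most like Cxcl1 (r = 0.943), Ccl2 (0.914) and Vcam1 (0.901). Csf1, the macrophage growth factor, was among the 3 most like Ccl2 (0.897), Cxcl1 (0.913), Vcam1 (0.893) and Cx3cl1 (0.799). Icam1 had Rnd1 (0.929), Ccrl2 (0.918) and Birc3 (0.912), and Il1b had Plek (0.924), Pla1a (0.911) and Tbc1d17 (0.903). Ccl7, the neighbouring monocyte attractant, followed Ccl2 at 0.907, and Tbc1d17 and Pla1a followed Cxcl1 at 0.925 and Vcam1 at 0.894. Ccl5 had Slc28a2 (0.853), Slc11a1 (0.843) and Ptprcap (0.826), the last 2 expressed in leukocytes. Ccl20 had Sh2b2 (0.867), Amigo2 (0.865) and Tpi1 (0.849), and Cx3cl1 also had Mmp9 (0.794) and Nfkb2 (0.768).

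Over the 12 group means, where age sets most of the pattern, likeness was near 1 for 7 members. Among 9827 named probes the most like were Cyp2f4 for Ccl2 (0.994), Vav1 for Ccl5 (0.997), Nfkb2 for Ccl20 (0.995), Spetex2h for Cxcl1 (0.995), Car15 for Cx3cl1 (0.995), Fam25a for Icam1 (0.994) and Fgl2 for Il1b (0.995). Vcam1 had no such companion, and Rwdd2a was its nearest at 0.868. Its order of group means was also the only one led at both ends by adults, with adult PDTC males lowest at 8.98 ± 0.271 and adult untreated females highest at 10.57 ± 1.08 (SD, n = 5 each). Neighbouring groups overlapped everywhere in that order. For the other members the 4 adult groups were the highest 4, except Cx3cl1, whose groups of 2 weeks and adults were mixed above all groups of 2 days. Between neighbouring groups in these orders a gap without overlap was seen for Ccl5 and Il1b between 2 weeks and adults, and for Cx3cl1 between 2 days and 2 weeks.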

How the data were processed

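RNA of 59 FHH rat kidneys was extracted with TRIzol and NucleoSpin columns, amplified with the TotalPrep kit and hybridised by a service company, per the labels' protocols. Per the file headers, each array has an intensity per probe and a p-value of detection; array medians differed, so the deposited intensities were not scaled to each other. The deposited p-value was small below as well as above background on each array. The authors' value table holds deposited log2 values, ranked within each array as the signals are.

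The planned background step, neqc, takes detection p-values as one-sided and was replaced. An array's background was taken as the middle signal among its 50 probes of highest p-value, with its SD from the signals below it. Signals were corrected by normexp, 16 was added, and the 59 arrays were quantile-normalized and put on a log2 scale. Probes above background (p under 0.05) on at least 4 arrays of a fit were tested with limma 3.58.1 in R 4.3.3 on group means, adjusted by Benjamini-Hochberg over all tested probes, with a threshold of 0.05. Signals were 67.8 to 203 in the median over background levels of 59.9 to 137, and the number of arrays limits the precision. Python 3.11.15 with scipy 1.17.1 gave permutation tests. The fits were tested on simulated data.

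Groups came from the labels and slides from the array names in the labels, and replicates were numbered in accession order. No arrays held identical values. The 13793 probes with a gene symbol were named through the platform annotation and 8730 have none. The 8 members and all lists were chosen with earlier results of these data known. All members were named, with, per list, the genes called with PDTC or else the 2 of smallest p, the 3 of smallest p for ages and for sex, the 2 brightest markers in adults, and the 3 genes most like each member (over group means the text prints the first). Alternatives were no normexp, scaling to 1 median, no filter, a filter on the deposited p-value, the authors' log2 values, a fixed term or random block for slide, 1 fit of all arrays, array weights, leaving out slide 6 and leaving out each array.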

Additional observations from a re-analysis of the deposited data

Results flagged for a closer look

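In the groups of 4 to 6 rats, a highest or lowest value far from the rest of its group was found in 5 of 96 cases (8 members in 12 groups), about the 1 in 20 that chance gives. Among adults, Ccl2 was at 10.9 in untreated male 4, with the next male at 8.66, and Il1b was at 7.28 in untreated female 5, with the next female at 10.24. Among pups of 2 days, Ccl2 was at 5.86 in untreated female 1 (next 5.31), Icam1 at 8.99 in PDTC female 3 (next 8.63) and Il1b at 5.32 in PDTC male 2 (next 5.62). The cause of these values was not tested.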

How the results depend on the processing

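No paired analysis was possible because replicate numbers were given in accession order and carry no pairing. Of 192 counts of members called under the alternatives other than leaving out 1 array, 188 stayed within 1.5 times, and 4 moved. Adults against 2 weeks went to 1 member, against 6, with slide as a fixed term, and was 6 to 7 with 1 array left out. Untreated adult females against males went to 3 in 1 fit of all arrays (Cxcl1, Icam1 and Vcam1, with adjusted p = 0.00778, 0.0282 and 0.00998), against 0, and was 0 to 1 with 1 array left out. In 1 fit of all arrays, which pools the spread over ages, 2 weeks against 2 days went to 1, against 4. PDTC at 2 days went to 1 with array weights, against 0. With arrays scaled to 1 median, adults against 2 weeks turned sign for Cx3cl1, at -0.52 and then called, for Ccr7, at 0, and for Vcam1, at -0.38 and not called on either scale. For single members 3662 of 3664 values with 1 array left out and 1488 of 1504 under other alternatives stayed on their side of the threshold without a called value turning sign, as 1516 of 1520 and 662 of 700 did for other named genes. Signs of values called on neither side were not counted, and some of those turned.

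Over all probes, the called count for untreated adult females against males was 157, and 42 with arrays scaled to 1 median, 1018 in 1 fit of all arrays, 237 with array weights and 89 to 172 with 1 array left out. For 2 weeks against 2 days it was 5059, and 2722 with arrays scaled to 1 median. For adults against 2 weeks it was 8393, and 715 with slide as a fixed term. For PDTC at 2 days it was 0, and 373 with array weights, 1 in 1 fit of all arrays and up to 258 with 1 array left out. For PDTC in adults it was 0, and 51 in 1 fit of all arrays. For the spread of adults against 2 weeks it was 1, and 0 to 349 with 1 array left out. Members' values near background, as those of Ccl2 at 2 days, understate differences.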

Other observations

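Other genes of the pathway lists varied between adult rats as widely as the members, and were picked after their values were seen. Among 11701 tested probes Cxcl13 had the third largest SD between rats of a group (2.08), Cxcl2 the fourth (2.04), Selp, the P-selectin of endothelium and platelets, rank 6 (1.86), Ccl4 rank 7 (1.86), Ccl3 rank 8 (1.64) and Ccl12 rank 21 (1.42). Rank 1 was Sv2b (2.33), a synaptic vesicle protein. An SD over 1 was held by 8 of 20 chemokine ligands, 1 of 12 receptors, 1 of 14 adhesion genes, 0 of 10 genes of the interleukin 1 system and 3 of 10 NF-kB targets, beside 1.32% of all probes.

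Values of single adult rats follow. Selp was at 8.42 and 9.81 in PDTC females 4 and 5, and 5.96 or less in PDTC females 1 to 3. Untreated females 1 to 4 had 10.74, 8.79, 6.85 and 9.65, and untreated female 5 was not above background at 4.7. Untreated male 4 had 8.67, and the other 9 adult males were not above background. Cxcl2 was at 9.67 and 9.92 in PDTC females 4 and 5, and at 11.26, 8.36, 7.74 and 10.55 in untreated females 1 to 4. It was at 8.48 in untreated male 4 and 6.75 in PDTC male 3, and not above background in the other 12 adults. Ccl3 and Ccl4, which attract macrophages and T cells, were above background on 7 and 8 of 20 adult arrays and on 0 pup arrays.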
